A study of Mus musculus with 79 samples.

Results

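Cells sorted as T+ Sox2+ from the caudal end of wild-type mouse embryos were compared with cells sorted as T+, with 1 RNA library for each sort. The comparison uses 2 of the 79 samples of the series, taken by their labels, and the other samples enter only where a level is set beside theirs. Both groups were wild type, strain C57BL/6N, Theiler stage (TS) 12, with no treatment, and their embryos were grown from embryonic stem cells by tetraploid complementation, so that the cultured cells form the embryo itself. Caudal ends of several embryos were pooled before trypsin dissociation and sorting, so each library is 1 pool. RNA came from about 2500 cells and the library from the equivalent of about 1000, amplified by 14 PCR cycles. The labels do not say how T and Sox2 were marked for the sort, or whether the T+ gate left out cells with Sox2. Values are in FPKM, a fragment count divided by transcript length and by the fragments mapped in the library, so that levels can be set beside each other between genes.

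Neuro-mesodermal progenitors lie at the tail end of the embryo and feed both the spinal cord and the paraxial mesoderm, which forms the somites. They are recognised by having both T (Brachyury), a T-box factor of the primitive streak and of mesoderm formation, and Sox2, a SoxB1 factor of neural and pluripotent cells. Wnt3a and Fgf8 keep these cells in place, Cyp26a1 protects them from retinoic acid, and Cdx factors carry these signals to the Hox genes. T alone is also found in the streak and in the early mesoderm that leaves it.

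Promoters of 5 genes past 2-fold in the comparison are printed to show the sequence beside the level. They are Nkx1-2, which had the second largest difference upward, Sp5, a Wnt-responsive factor, and the red cell genes Hba-x, Hbb-bs and Epor, all lower. Each line gives the 250 bases before the RefSeq start on the gene's strand, 5′ to 3′. Build GRCm38.p6 places them at chr7:132599638-132599887 (minus strand), chr2:70474673-70474922 (plus), chr11:32276350-32276599 (plus), chr7:103827929-103828178 (minus) and chr9:21963577-21963826 (minus), in the order printed. Capitals mark a match on either strand to a searched word. For T-box factors the word was AGGTGTGA, for Tcf/Lef factors it was CTTTGAT, and for SoxB1 factors it was ACAATGG. For Cdx factors the word was TTTATGG, for GATA factors it was AGATAAG, and for the CACCC box it was CCACACCC.
Nkx1-2: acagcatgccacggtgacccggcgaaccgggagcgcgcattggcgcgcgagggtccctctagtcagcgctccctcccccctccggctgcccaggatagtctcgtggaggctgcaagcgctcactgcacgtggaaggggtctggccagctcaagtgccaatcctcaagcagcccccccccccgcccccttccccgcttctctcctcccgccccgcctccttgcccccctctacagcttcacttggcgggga
Sp5: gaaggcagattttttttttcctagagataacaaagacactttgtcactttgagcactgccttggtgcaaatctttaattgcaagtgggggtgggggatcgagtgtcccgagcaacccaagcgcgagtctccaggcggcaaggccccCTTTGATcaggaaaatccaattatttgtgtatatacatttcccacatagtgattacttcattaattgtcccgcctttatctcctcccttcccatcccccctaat
Hba-x: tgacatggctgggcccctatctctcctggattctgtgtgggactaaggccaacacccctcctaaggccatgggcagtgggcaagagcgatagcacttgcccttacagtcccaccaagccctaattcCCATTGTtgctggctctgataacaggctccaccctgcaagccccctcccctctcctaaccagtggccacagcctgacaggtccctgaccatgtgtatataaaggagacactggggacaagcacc
Hbb-bs: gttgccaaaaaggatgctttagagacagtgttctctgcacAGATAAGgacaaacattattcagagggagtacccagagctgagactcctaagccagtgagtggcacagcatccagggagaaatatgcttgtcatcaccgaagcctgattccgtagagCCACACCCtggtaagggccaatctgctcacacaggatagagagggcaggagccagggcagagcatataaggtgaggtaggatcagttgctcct
Epor: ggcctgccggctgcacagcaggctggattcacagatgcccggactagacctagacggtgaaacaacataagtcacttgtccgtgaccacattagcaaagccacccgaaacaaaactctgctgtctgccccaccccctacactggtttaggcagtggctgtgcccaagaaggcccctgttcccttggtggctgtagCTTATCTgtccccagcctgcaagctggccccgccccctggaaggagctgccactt
Sp5 had the Tcf/Lef letters 104 bases before the start, and Hba-x the SoxB1 letters on the other strand, 124 bases before it. Hbb-bs had the GATA letters 210 bases and the CACCC letters 93 bases before the start, and Epor the GATA letters on the other strand, 55 bases before it. Nkx1-2 held none of these words. Most promoters in the sets these genes come from lacked the words. Of 97 promoters of genes at least 2-fold higher in T+ Sox2+ cells, 1 (that of Sp5) held the Tcf/Lef letters. That is 1.03%, against 3.73% of all promoters. Of 17 promoters of listed red cell genes, 3 held the GATA letters, 1 the CACCC letters and 1 the SoxB1 letters. The GATA share was 17.6%, against 3.04% of all promoters and 1.61% of those of genes counted in the comparison. The CACCC and SoxB1 shares were 5.88% each, against 3.56% and 3.66% of all promoters. These shares were not tested. A match is a run of letters, not a site shown to be bound.

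Levels of the sorted genes were read first. Sox2 was listed at 2.82 FPKM in T+ cells and 16.4 in T+ Sox2+ cells, and at 50.5 in cells sorted as Sox2+ from the same stage. T was listed at 141 FPKM in T+ cells and 341 in T+ Sox2+ cells. The double sort was therefore the higher of the pair for both genes, and both were left out of the counts. Tbx6, a presomitic T-box gene that other sorts of the series used, was at 152 FPKM in T+ and 173 in T+ Sox2+ cells, a difference of 0.18 on the log2(FPKM + 1) scale used from here on.

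Depth was estimated from the steps between low FPKM values at 28900000 fragments for T+ and 23300000 for T+ Sox2+. At these depths 5 FPKM on a 1 kb transcript amounts to 144 and 116 fragments, whose counting error alone gives a standard error of 0.15 for the log2 difference. That error leaves out embryos, sorting and library preparation. With 1 library a group there is no replicate check and no p-value, so a difference describes these libraries. In bulk RNA, fewer cells of a type and less RNA per cell cannot be told apart. The T+ wild-type libraries of TS12 and TS13 in a second table, made by another kit from about 20000 cells and scaled separately, are given as levels only. The TS12 one stood apart: 1025 of 1449 olfactory and vomeronasal receptor genes were above 0 in it, against 22 to 33 in the 3 sorted fractions and the TS13 library.

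The bulk of the transcriptome was alike in the 2 fractions, and the genes past 2-fold were few. Of the 8293 genes that reached 5 FPKM in either library, 108 were higher by 2-fold or more in T+ Sox2+ cells (1.3%) and 156 lower by 2-fold or more (1.88%), or 3.18% in either direction. The median difference was -0.02 and 89.4% of genes lay within 0.5 of 0. At 4-fold, 18 genes were higher and 70 lower. At the edge of the 2-fold rule, Sall3 (1.02) was the last gene counted as higher and Stmn2 (0.996) the first left out, and Slc43a3 (-1.02) the last counted as lower and Parvb (-0.994) the first left out, named here for their place only. Counts of list members below are read against these shares, since the lists were drawn up with results of these libraries known. A member that reached 5 FPKM in only 1 library had to differ, so its difference is given as a level and supports nothing.

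**Figure D1:**
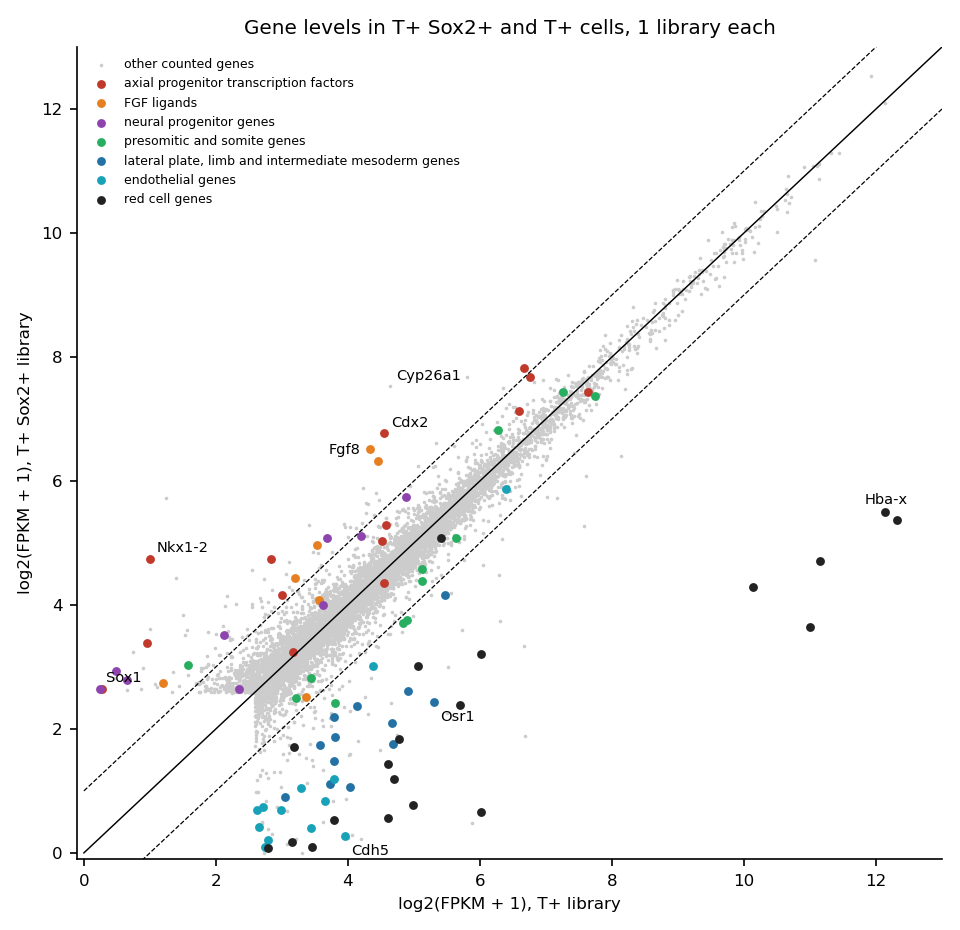
Level of each of the 8293 counted genes in the T+ Sox2+ library (y axis) against the T+ library (x axis), both as log2(FPKM + 1), with members of selected lists that reached 5 FPKM in colour. The solid line marks equality and the dashed lines 2-fold: most progenitor factors and FGF ligands lie above equality, with Sall4, Gbx2 and Fgf9 below it, and the lateral plate, endothelial and red cell genes shown lie below it, with Hba-x at 5119 FPKM in T+ and 40.6 in T+ Sox2+ cells.

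Several transcription factors of axial progenitors were higher in T+ Sox2+ cells. Of 16 listed factors, 14 reached 5 FPKM, 11 of them in both libraries and 3 (Nkx1-2, Hes3 and Grhl3) in T+ Sox2+ cells alone. Of the 11 at the minimum in both, 4 were higher by 2-fold or more and 0 lower, against 1.3% and 1.88% of all genes, and their median was 0.72 against -0.02. With the other 3, whose direction the minimum fixed, the numbers are 7 of 14 and a median of 1.02. Nkx1-2, a homeobox gene of the caudal lateral epiblast, was at 1.00 FPKM in T+ cells and 25.8 in T+ Sox2+ cells, a difference of 3.75. In Sox2+ cells it was higher still, at 56.3 FPKM.

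Cdx2, the caudal homeobox factor of posterior growth, was at 22.5 FPKM in T+ and 108 in T+ Sox2+ cells, a difference of 2.21. Cdx4 was at 101 and 225 FPKM, the largest upward difference (1.14) among genes at 100 FPKM or more in both libraries. Cdx1 stayed below 5 FPKM in both, at 4.87 and 2.97, so the Cdx genes did not share a direction. The zinc finger factors Sp8 and Sp5, both of the Wnt pathway, differed by 1.91 (6.14 and 25.8 FPKM) and 1.16 (6.99 and 16.9 FPKM). Hes3, which encodes a bHLH repressor, was at 0.208 and 5.24 FPKM, and Grhl3, an epithelial factor, at 0.935 and 9.46 FPKM.

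The other listed factors were within 2-fold. Evx1, a homeobox gene of the streak, was at 22.8 and 38.2 FPKM, and Mixl1, another, at 8.00 and 8.48. Lin28a, an RNA-binding regulator of let-7, was at 108 and 203 FPKM (0.91). Sall4 and Gbx2 were slightly lower, by 0.21 and 0.20 in size. Pou5f1, the pluripotency factor Oct4, was listed at 0 in T+ cells and 2.48 FPKM in T+ Sox2+ cells, below the minimum.

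FGF ligands of the tail bud were higher in T+ Sox2+ cells. Of 9 ligands, 7 reached 5 FPKM, and 5 of them were higher by 2-fold or more, with a median of 1.44. Of the 5 at the minimum in both libraries 4 were higher, with the same median. Fgf17 was at 19.2 FPKM in T+ and 90.3 in T+ Sox2+ cells, and Fgf8 at 20.9 and 78.8. Fgf15 was at 10.6 and 30.4 FPKM, Fgf3 at 8.15 and 20.6, and Fgf4, which reached the minimum in T+ Sox2+ cells alone, at 1.30 and 5.70. All 5 are ligands of the streak and tail bud.

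The other ligands did not pass 2-fold upward. Fgf18 was higher by 0.52, within 2-fold, and Fgf5 was listed at 0 in both libraries. Fgf9, which reached the minimum in T+ cells alone, was at 9.34 FPKM there and 4.72 in T+ Sox2+ cells, and Fgf10, a limb field ligand, at 2.52 and 0.404. The ligands peaked in different fractions: Fgf8, Fgf15, Fgf3 and Fgf4 were highest in T+ Sox2+ cells among the 3 sorts, at 45.1, 14.1, 4.89 and 1.65 FPKM in Sox2+ cells, while Fgf17 (103 FPKM) was highest in Sox2+ cells.

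Genes that answer FGF differed by less than the ligands. Among 15 receptors and feedback targets, 11 reached 5 FPKM, 1 was at least 2-fold higher, 0 lower, and the median was 0.51. Spry4, a feedback inhibitor of the pathway, was at 20.0 and 42.6 FPKM (1.05). The related Spry2 and Spry1 differed by 0.92 and 0.83, and the phosphatase Dusp6, a further feedback inhibitor, by 0.73. The receptor Fgfr1 was at 44.5 and 40.8 FPKM, and Spred2, another inhibitor, was 0.25 lower.

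Among 19 Wnt ligands only 3 reached 5 FPKM, all in both libraries. Wnt3a, the canonical ligand of the tail bud, was at 9.62 FPKM in T+ and 38.2 in T+ Sox2+ cells (1.88), and at 16.3 in Sox2+ cells. The non-canonical Wnt5b and Wnt5a differed by 0.78 and 0.47. The other 16 ligands were at 1.19 FPKM or less in both.

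Wnt targets, antagonists and enhancers did not follow Wnt3a as a set. Of 21 genes, 16 reached 5 FPKM, 2 were at least 2-fold higher, 1 lower, and the median was 0.08. The direct feedback genes Axin2, at 48.7 and 55.9 FPKM, and Nkd1, at 35.5 and 31.6, were within 0.2 of equality. Cyp26a1 and Notum, a secreted enzyme that inactivates Wnt ligands (2.88 and 7.19 FPKM), were the 2 higher ones. Apcdd1, a membrane inhibitor, was the lower one, at 16.3 and 7.46 FPKM. The antagonist Nkd2 was at 65.2 and 34.9 FPKM and the secreted antagonist Frzb at 31.6 and 20.1, both within 2-fold.

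Retinoic acid genes passed 2-fold at 1 member in each direction. Cyp26a1, the enzyme that breaks retinoic acid down in the tail bud, was at 23.9 FPKM in T+ and 184 in T+ Sox2+ cells, a difference of 2.89, and at 140.5 in Sox2+ cells. Aldh1a2, the enzyme that makes retinoic acid in trunk mesoderm, was at 13.0 and 4.36 FPKM, a difference of -1.39, and reached the minimum in T+ cells alone. These were the only 2 of the 9 genes at the minimum, out of 16 listed, to pass 2-fold. The binding proteins Crabp1 and Crabp2 leaned apart, at -0.97 and 0.79, and the receptor Rarg was at 69.4 and 91.8 FPKM.

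**Figure D2:**
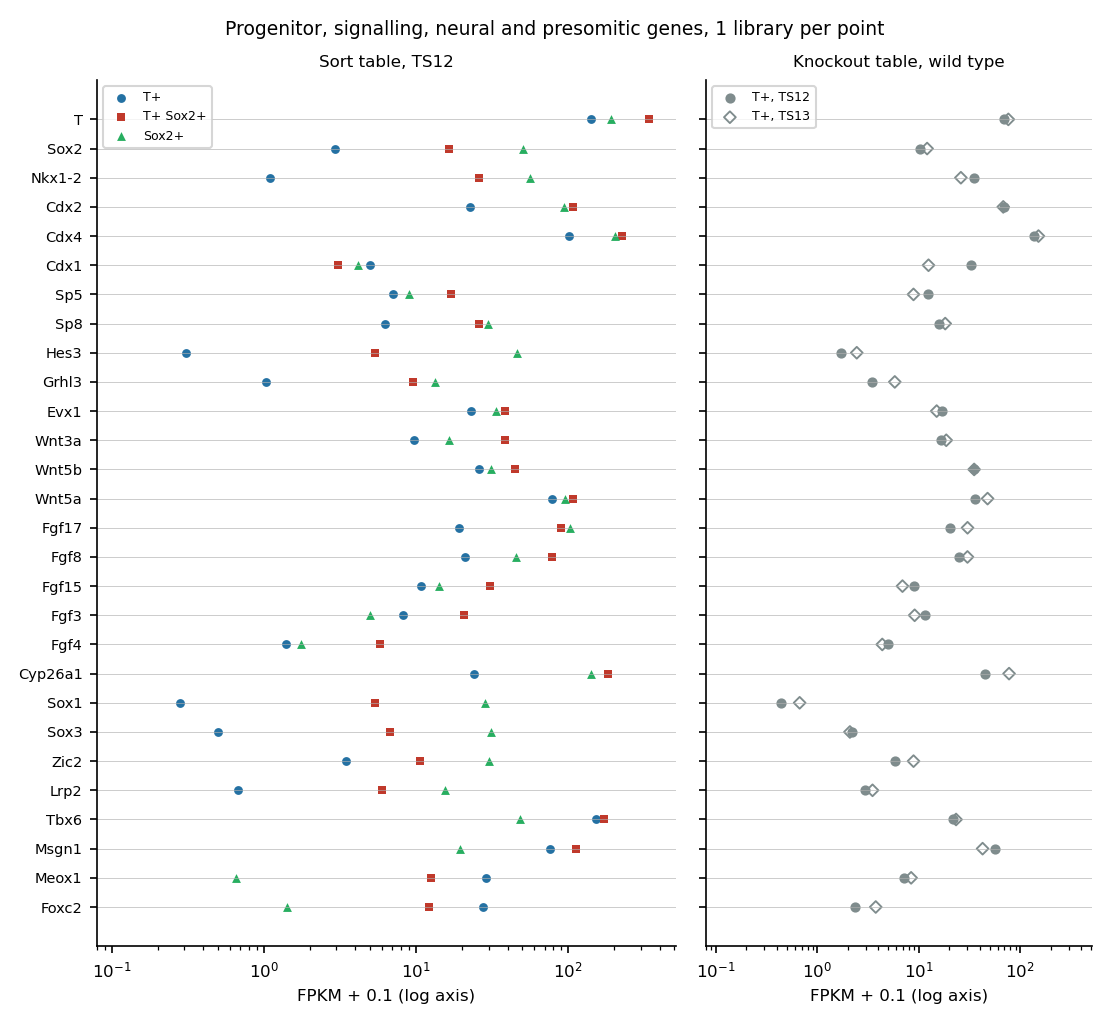
Level in FPKM + 0.1 (log axis) of progenitor, signalling, neural and presomitic genes in T+, T+ Sox2+ and Sox2+ libraries (left) and in the 2 wild-type T+ libraries of the separately scaled table (right), 1 library per point. Nkx1-2 stands at 1.00, 25.8 and 56.3 FPKM on the left and at 35.0 and 25.9 on the right, and Wnt3a, Fgf8 and Fgf3 are highest in the double sort.

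The 4 neural genes at the minimum in both libraries had the higher level in T+ Sox2+ cells, 1 of them by 2-fold or more. Another 5 reached the minimum in T+ Sox2+ cells alone and so had to be higher there. Of 23 neural progenitor genes 9 reached 5 FPKM, 4 in both libraries and 5 in T+ Sox2+ cells alone; 5 passed 2-fold upward and 0 downward, and the median was 1.40. For 4 of the 5 past 2-fold the minimum fixed the direction. Of the 4 genes at the minimum in both, 1 (Fabp7) passed, and their median was 0.89. Over all 23 measured genes, with those near 0 included, the median was 0.50. Sox3, the SoxB1 partner of Sox2, was at 0.403 FPKM in the T+ sort, 6.61 in the double sort and 31.1 in the Sox2+ sort. Sox1, the SoxB1 gene of committed neural plate, stood at 0.180, 5.28 and 28.3 FPKM in these sorts. Zic2, a zinc finger factor of dorsal neural tissue, was at 3.36, 10.5 and 30.1 FPKM, and the endocytic receptor Lrp2 at 0.578, 5.91 and 15.4.

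Each of these 4 stood lowest in T+ and highest in Sox2+ cells, and each reached 5 FPKM in T+ Sox2+ but not in T+ cells. Fabp7, a fatty acid binding protein of radial glia, had another order, at 11.8, 32.8 and 6.75 FPKM. Foxb1, a forkhead factor, was at 17.3, 33.5 and 33.2 FPKM and Nes, an intermediate filament gene, at 11.3, 15.1 and 13.3, both with the highest value in T+ Sox2+ cells. The 14 neural genes below the minimum were at 4.13 FPKM or less in both libraries compared, among them Pax6 at 1.57 and 3.72, Irx3 at 3.38 and 2.16, and Olig2 at 0.0995 and 0.0352. Markers of neural crest, and of notochord and node, did not reach 5 FPKM in either library; their highest values were 4.82 (Ets1) and 2.42 (Noto). Surface ectoderm markers other than Grhl3 were at 2.19 FPKM or less.

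Presomitic and somite genes leaned lower in T+ Sox2+ cells, most of them by less than 2-fold. Of 20 presomitic and somite genes 12 reached 5 FPKM, of which 1 was 2-fold higher or more, 3 were lower, and the median was -0.59. Of the 9 at the minimum in both, 0 were higher and 2 lower. By level alone, 16 of the 20 were lower in T+ Sox2+ cells and 4 higher, with those near 0 included. Tbx6 and Msgn1, the master factors of presomitic mesoderm, were at 152 and 173 FPKM and at 76.5 and 112 FPKM, both within 2-fold. The lower ones were Meox1, Foxc2 and Aldh1a2, which is given above. Meox1, a homeobox gene of the somite, was at 28.6 and 12.5 FPKM (-1.13), and Foxc2, a forkhead factor of the anterior presomitic and somitic mesoderm, at 27.5 and 12.1 (-1.13).

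Differences within 2-fold, with the lower value in T+ Sox2+ cells, were seen for Foxc1 (-0.73), Tcf15 (-0.62) and the protocadherins Pcdh8 (-0.70) and Pcdh19 (-0.55). Mesp2, which sets the segment boundary, stayed below the minimum at 4.51 and 1.66 FPKM. Pax3, a paired-box factor shared by dorsal neural tube and presomitic mesoderm, was the 1 member past 2-fold upward, at 1.99 and 7.17 FPKM. It reached the minimum in T+ Sox2+ cells alone, so its direction was fixed. Notch and segmentation clock genes were within 2-fold without exception: 12 of 13 reached 5 FPKM, with differences from -0.92 (Hey1) to 0.76 (Jag1) and a median of 0.17. The ligands Dll1 (95.1 and 112 FPKM) and Dll3 (74.1 and 79.5) and the oscillating repressor Hes7 (32.7 and 47) were among them.

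Lateral plate mesoderm genes were lower in T+ Sox2+ cells at every member that could be counted. The list of 26 lateral plate, limb and intermediate mesoderm genes had 13 at 5 FPKM or more. All 13 were at least 2-fold lower, with a median of -2.30. For 11 of the 13 the minimum was reached in T+ cells alone, so those differences could only be downward and support nothing. The 2 at the minimum in both, Hand1 and Meis2, were lower by 2-fold or more, against 1.88% of all genes. Their median was -1.80. The 13 members below the minimum were at 2.75 FPKM or less. Pax2 (0.778 and 2.75 FPKM), of intermediate mesoderm, was among the 2 members with a higher level in T+ Sox2+ cells.

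Osr1, a zinc finger factor of intermediate and lateral mesoderm, was at 38.5 FPKM in the T+ sort, 4.38 in the double sort and 1.06 in the Sox2+ sort. Hand1, a bHLH factor of lateral plate, was at 29.1, 5.14 and 2.34 FPKM, and Foxf1, the forkhead factor of splanchnic mesoderm, at 24.4, 3.29 and 0.851. In these 3 genes T+ was highest and Sox2+ lowest. The same order held in genes of the hindlimb field: Pitx1 was at 24.6, 2.39 and 0.615 FPKM and Tbx4 at 12.8, 1.78 and 0.139. Prrx1, a homeobox gene of limb and lateral mesenchyme, differed most (-2.97), at 15.4, 1.09 and 0.542 FPKM. Meis1 and Meis2, TALE homeobox cofactors, were lowest in T+ Sox2+ cells, at 16.7, 4.19 and 6.06 FPKM and at 43.2, 16.9 and 20.3.

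Signals and mesenchymal genes tied to these tissues differed in part. Bmp4, the ligand of lateral and extraembryonic mesoderm, was at 52 and 11.0 FPKM (-2.14), the 1 gene of 10 at the minimum in the 18-gene BMP list to pass 2-fold. The BMP targets Id1 and Id3 were lower by less, at -0.51 and -0.62, and Id2 was at 0.08. Of 11 mesenchymal and EMT genes 10 reached 5 FPKM, and 3 of them were at least 2-fold lower: Twist1 (25.8 and 2.74 FPKM), Snai2 (5.94 and 1.32) and Twist2 (7.13 and 2.75). These 3 reached the minimum in T+ cells alone, and 0 of the 7 at the minimum in both passed. Snai1, which drives the exit from the streak, was at 116 and 98.2 FPKM, and fibronectin, Fn1, at 445 and 307. The matrix genes Nid1 (-2.29), Col1a1 (-1.42) and Sparc (-1.25) were the 3 of 15 at the minimum past 2-fold, and of these Sparc alone reached it in both libraries.

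**Figure D3:**
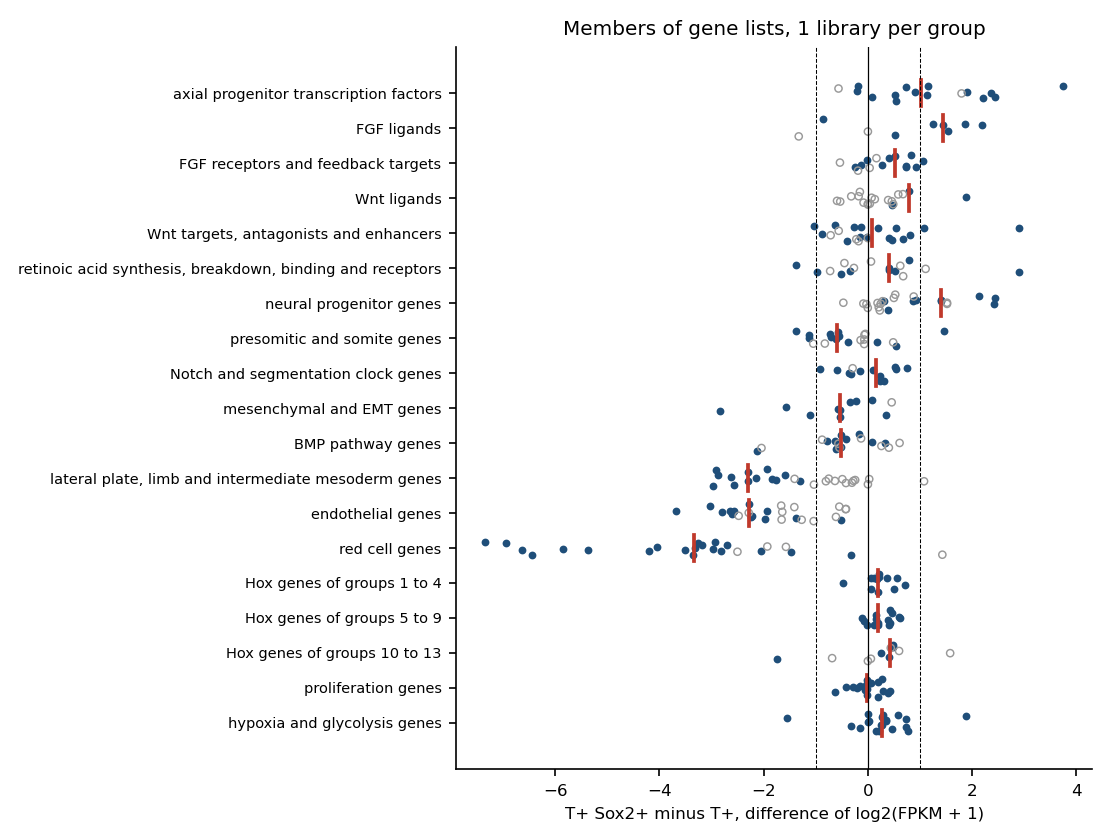
Difference of log2(FPKM + 1), T+ Sox2+ minus T+, for each member of the gene lists shown. Filled points reached 5 FPKM in at least 1 of the 2 libraries and open points did not. Red bars are medians of filled points and dashed lines mark 2-fold. Medians run from -3.34 for red cell genes to 1.44 for FGF ligands, and Hox groups 1 to 9 and proliferation genes lie within 2-fold of equality.

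Endothelial genes were lower as well, with their defining markers near 0 in T+ Sox2+ cells. Of 25 endothelial genes 13 reached 5 FPKM, 11 of them in T+ cells alone, and 12 of 13 were at least 2-fold lower, with a median of -2.29. At the minimum in both were Lmo2 and Egfl7, and 1 of these (Egfl7, 19.9 and 7.08 FPKM) passed. All 25 had the lower level in T+ Sox2+ cells. Cdh5, the vascular cadherin, was at 14.5 FPKM in T+ cells and 0.205 in T+ Sox2+ cells, and Pecam1, an adhesion molecule of vessels, at 5.70 and 0.0661. The exception was Lmo2, a LIM adaptor of blood and vessel precursors, at 83.0 and 57.6 FPKM. Kdr, the VEGF receptor of early mesoderm, was at 8.77 and 1.06 FPKM, and Etv2, the ETS factor of vessel precursors, below the minimum at 4.00 and 2.42.

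Red cell genes gave the largest differences of all. Of 26 listed genes 24 were measured and 20 reached 5 FPKM, and 19 of the 20 were lower by 2-fold or more, with a median of -3.34; 12 of the 20 reached the minimum in T+ cells alone. Of the 8 at the minimum in both, 7 were lower, with a median of -6.14. Together the 24 took 3.61% of the summed FPKM of the T+ library, 0.0508% of the T+ Sox2+ library and 0.0825% of the Sox2+ library. Of the 20 lowest genes of the comparison 11 were on this list. Hba-a2, an adult-type globin that shares reads with Hba-a1, had the largest difference (-7.35), at 2040 FPKM in T+ and 11.5 in T+ Sox2+ cells. The embryonic globins Hba-x and Hbb-y came next. Hba-x was at 5119 FPKM in T+ cells and 40.6 in T+ Sox2+ cells, and Hbb-y at 4508 and 44.1.

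Genes that make the red cell itself were lower too. Slc4a1, the anion exchanger of the red cell membrane, was at 63.8 and 0.576 FPKM. Alas2, the first enzyme of red cell haem synthesis, was at 30.7 and 0.716 FPKM, and Gata1, the erythroid master factor, at 9.96 and 0.0677. Tfrc, the transferrin receptor that dividing cells use in general, was the exception, at 41.4 and 32.8 FPKM. Leukocyte and platelet genes were scarce in both, since of 9 only Cd34, which vessels also have, reached 5 FPKM (6.22 and 0.226).

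Summed levels of the marker lists are given beside the lower genes. Summed over the list, endothelial genes were at 226 FPKM in T+, 76.1 in T+ Sox2+ and 35.0 in Sox2+ cells, and lateral plate genes at 274, 56.7 and 41.9. Without Lmo2, a sum added after the data were seen, endothelial genes were at 143, 18.5 and 18.9. Of the 156 lower genes, 32 belong to the endothelial, red cell, or leukocyte and platelet lists, and 124 were lower without them. Rescaling the T+ library to the total of the T+ Sox2+ library, both without red cell and mitochondrial genes, left 118 higher and 154 lower. The part of the vessel and red cell markers in the other lower genes was not tested.

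**Figure D4:**
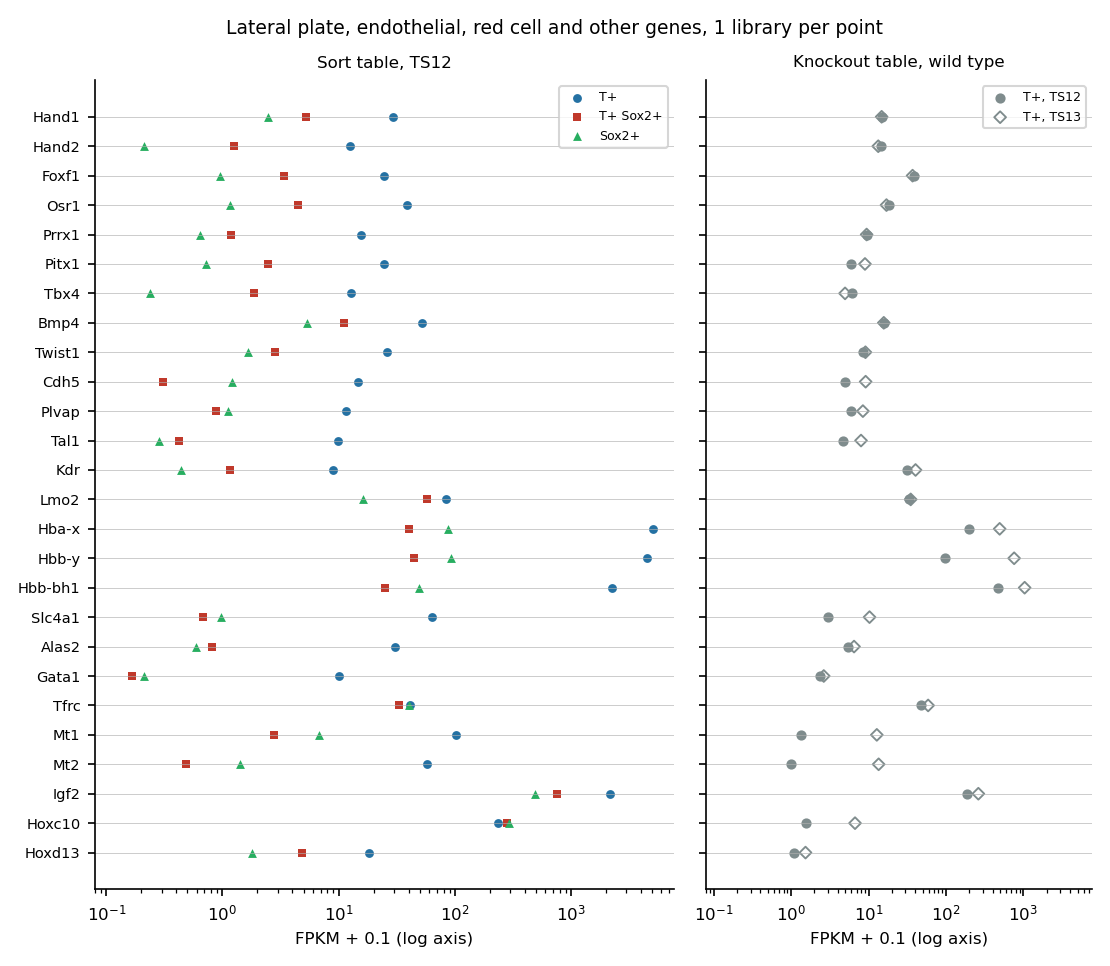
Level in FPKM + 0.1 (log axis) of lateral plate, endothelial, red cell and other genes, laid out as in the plot of progenitor genes, 1 library per point. T+ cells of the sort table are highest for Hba-x (5119 FPKM) and Slc4a1 (63.8 FPKM), Tfrc is alike in all 3 fractions, and Hoxc10 is at 237 FPKM or more on the left and at 1.45 and 6.60 on the right.

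Single T+ Sox2+ cells of wild-type embryos at TS13, the stage after, gave a separate look at the same genes. In each of the 53 cells T was at 1 FPKM or more, and Sox2 in 46. Between 4514 and 10177 genes were above 0 in a cell, and the depth of a cell is unknown. Genes higher in the bulk T+ Sox2+ library were at 1 FPKM or more in a median of 22.5 cells, genes lower in it in a median of 7, and all counted genes in a median of 35. Of the lower genes 34.6% were found in at most 2 cells, against 4.63% of the higher genes and 1.69% of all counted genes. Levels differ between these sets too: higher genes had a median of 14.7 FPKM in the bulk T+ Sox2+ library, lower genes 2.64 and all counted genes 17.6.

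The lower lists did not behave alike in these cells. Hba-x, Hbb-y, Hbb-bh1, Gata1 and Slc4a1 were at 1 FPKM or more in 0 of 53 cells, which allows a share of up to 5.66% of cells by the limit of 3 cells in 53. That limit concerns cells in which a gene is detected at this unknown depth, not cells that express it. It also takes the 53 cells as independent draws, though they are not replicates. Of the 20 red cell genes at the bulk minimum 14 were found in at most 2 cells, and of the 13 endothelial genes 8, with Cdh5 in 1 cell and Plvap in 0. Lateral plate genes, by contrast, were found in a median of 21 cells and none of the 13 in fewer than 5. Foxf1 was at 1 FPKM or more in 46 cells, with a median of 40.9 FPKM and a highest value of 124, Hand1 in 36 cells and Osr1 in 34.

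Of the 46 cells with Foxf1, 41 had Sox2, which was in 46 of all 53 cells, and 11 had Nkx1-2, which was in 12. Foxf1 was itself in most cells, so these joint counts carry little information. The same holds for Cyp26a1, Fgf8 and Wnt3a, which were in nearly all cells. Prrx1 was found in 11 cells, Twist1 in 7 and Tcf21 in 5, so not all lateral plate and mesenchymal genes were common. With a minimum of 10 FPKM in a cell, chosen after the data were seen, the median for lateral plate genes was 11 cells and that for endothelial and red cell genes 0. No library compares T+ cells with T+ Sox2+ cells at the level of single cells, and stage and method differ from the bulk pair.

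The number of cells in which a progenitor gene was found differed widely between genes. With the depth of a cell unknown, a gene that is absent cannot be told apart from one that was missed. Fgf8 was at 1 FPKM or more in 53 of 53 cells (median 128 FPKM), Cyp26a1 in 52 (median 169), Cdx4 in 51 and Wnt3a in 50. Nkx1-2, second among the genes higher in bulk, was found in 12 cells and Cdx2 in 25, where its highest value was 33.9 FPKM. Cdx1, below 5 FPKM in both bulk libraries, was found in 45 cells with a median of 55.9 FPKM. Tbx6 was found in 46 cells and Msgn1 in 15. Sox1 was found in 5 cells and Sox3 in 22.

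The wild-type T+ libraries of the second table differed in makeup from the T+ fraction. Nkx1-2 was at 35.0 FPKM in the TS12 library and 25.9 in the TS13 library, Sox2 at 10.2 and 12, and Cyp26a1 at 45.1 and 77.6. Hba-x was at 196 and 493 FPKM, Slc4a1 at 2.87 and 10.2, and Foxf1 at 38.8 and 37.0. Summed red cell genes made 0.244% and 0.555% of the total. T+ libraries under the same label thus had different makeups in the 2 tables, and kit, cell number and scaling, which differ between them, and a difference in the actual stage of the embryos cannot be told apart.

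Hox genes set the position of a cell along the body axis. None of the 27 genes of groups 1 to 9 passed 2-fold; 12 of 12 in groups 1 to 4 and 15 of 15 in groups 5 to 9 reached 5 FPKM, with medians of 0.20 and 0.19. In groups 10 to 13, 6 of 12 reached it. Hoxc10 was at 237 FPKM in the T+ sort, 280.4 in the double sort and 295 in the Sox2+ sort. The 1 gene past 2-fold was Hoxd13, a gene of the tail end and of limb and genital buds, at 18.2, 4.74 and 1.69 FPKM.

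Hox genes of groups 10 to 13 separated the tables. Summed, they were at 372, 448 and 413 FPKM in T+, T+ Sox2+ and Sox2+ cells, and at 10.1 and 24.6 FPKM in the T+ libraries of TS12 and TS13 of the other table. Hoxc10 was at 1 FPKM or more in 6 of 53 cells. The labels give TS12 for the 3 sorted fractions, and what sets them apart from the other TS12 library in these genes was not tested.

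Proliferation genes differed little, and hypoxia and glycolysis genes leaned higher in T+ Sox2+ cells, mostly within 2-fold. All 18 proliferation genes were within 2-fold (median -0.01), from Ccne1 at -0.62 to Bub1 at 0.43. Of 20 hypoxia and glycolysis genes 1 was higher by 2-fold or more, 1 lower, and the median was 0.27. By level alone, 17 were higher in T+ Sox2+ cells and 3 lower. The glucose transporter Slc2a3 was at 54.6 FPKM in T+, 205 in T+ Sox2+ and 421 in Sox2+ cells, and Slc2a1 at 112, 192 and 474. Among the enzymes, Pfkp was at 5.37 and 9.54 FPKM (0.73), Pkm differed by 0.36, Aldoa by 0.00169 and Gapdh by -0.31.

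Guidance and adhesion genes supplied further single differences. Sema3a, a repulsive guidance ligand, was at 1.01 FPKM in T+, 11.2 in T+ Sox2+ and 43 in Sox2+ cells. Of 14 Eph and ephrin genes at the minimum, 3 receptors were higher: Epha5 (0.863 and 6.86 FPKM), Epha1 (10.1 and 28) and Epha2 (4.24 and 10.2), of which Epha1 alone reached the minimum in both libraries. Unc5c (9.25 and 1.88 FPKM), a netrin receptor, and Plxnd1 (13.5 and 5.23), a semaphorin receptor of vessels, were the lower ones among 13 guidance genes. Of 13 epithelial genes 5 reached 5 FPKM, with a median of 0.23. Of these Cldn6 was higher, at 4.83 and 14.7 FPKM, the keratin Krt18 was lower, at 19.3 and 6.07, and Krt8 was within 2-fold at 24.4 and 13.8.

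Of 15 Nodal, TGF-beta and GDF genes 4 reached 5 FPKM, and 2 of them passed 2-fold. Gdf11, a ligand that times the switch from trunk to tail, was at 21.2 and 50.5 FPKM (1.21), and Fst, an activin and BMP binding protein, at 8.07 and 3.32 (-1.07), the minimum being reached in T+ cells alone. The Hedgehog receptor Ptch1 was at 34.1 and 42.1 FPKM. Of 9 p53 target and apoptosis genes, Pmaip1, which encodes the BH3-only protein Noxa, was the 1 past 2-fold, at 1.62 and 20.5 FPKM (3.04), reaching the minimum in T+ Sox2+ cells alone, while Cdkn1a, Mdm2 and Bax were within 0.4 of equality. Dissociation stress genes were within 2-fold in 5 of 6 cases, the other being Ier3 at 2.41 and 6.66 FPKM.

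Further genes stood among the most different. Slain1, a microtubule-associated protein, was at 0.670 FPKM in T+ and 8.43 in T+ Sox2+ cells, Lix1 at 1.83 and 13.3, and Gldc, the glycine cleavage enzyme, at 4.84 and 22.6. Lypd6b (2.36), Susd4 (1.99) and Gprc5a (1.98) also stood among the 20 highest. At the other end were the metallothioneins Mt2 (57.7 and 0.386 FPKM) and Mt1 (101 and 2.69), which bind zinc and copper. In single cells Mt2 was at 1 FPKM or more in 14 of 53 and Mt1 in 21. Csf2rb, a cytokine receptor subunit of blood cells, was at 17.3 and 0.171 FPKM, Hemgn and Ermap, both of red cells, at 15.7 and 0.223 and at 10.1 and 0.113, and Spns2, a sphingosine-phosphate transporter, at 15.0 and 0.185.

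Among 566 genes at 100 FPKM or more in both libraries only 2 passed 2-fold. These were Cdx4 and Igf2, the imprinted growth factor, which was at 2148 FPKM in the T+ sort, 759 in the double sort and 489 in the Sox2+ sort (-1.50). After Igf2 the largest downward differences were Fth1 and Csrp2 (both -0.71), Vim (-0.58) and Polr2a (-0.55). After Cdx4 the largest upward ones were Lin28a (0.91), Slc2a1 (0.77), the gap junction gene Gja1 (0.68) and Lars2 (0.60).

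Near-identical copies make some single values uncertain. Amd2 had the largest upward difference, at 1.36 and 52 FPKM, while its copy Amd1 was at 77.1 and 21.4. Rps27 was at 101 and 9.14 FPKM, and the near-copy Rps27rt at 701 and 949. Oaz1-ps was at 8.90 FPKM in T+ cells and listed at 0 in T+ Sox2+ cells, beside Oaz1 at 307 and 340.3. The adult-type globins Hba-a1 and Hba-a2, and Hbb-b1, Hbb-b2 and Hbb-bs, share reads as well, and the histone pair Hist3h2ba and Hist3h2a lies together. Hbb-b1 had the opposite direction of the other globins, at 0.275 and 2.43 FPKM.

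Promoter words were counted over the whole sets as a description. Of 32851 RefSeq promoters of 300 bases, 250 before to 50 after the start, 3.04% held the GATA letters and 3.56% the CACCC letters on either strand. Among the 8198 promoters of counted genes the shares were 1.61% and 3.42%. Promoters were found for 108 of the 156 lower genes, 143 promoters in all, of which 6.99% held the GATA letters and 5.59% the CACCC letters. Among the lower genes with the GATA letters were Epor, Hbb-bs, Isl1 and Spns2. Of 97 promoters of 76 higher genes, 2.06% held the GATA letters, 1.03% the Tcf/Lef letters, 4.12% the SoxB1 letters, 1.03% the Cdx letters and 0% the T-box letters. For the Tcf/Lef, SoxB1, Cdx and T-box letters, in that order, the shares over promoters of counted genes were 2.45%, 1.99%, 1.63% and 0.646%. Over all promoters they were 3.73%, 3.66%, 2.75% and 1.28%. The SoxB1 share of the lower genes was 4.20%, close to that of the higher genes. Sp5 was the higher gene with the Tcf/Lef letters, shown above.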

How the data were processed

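RNA-seq libraries of cells sorted as T+, T+ Sox2+ and Sox2+ (1 each, TS12), 2 wild-type T+ libraries of a second table and 53 single T+ Sox2+ cells (TS13) were read. The authors deposited FPKM for each symbol. Per the submitters' processing notes, TopHat2 2.1.0, Bowtie 1.1.2, Cufflinks 2.2.1 and Cuffdiff were used on build mm10 for the sorted fractions; the sources used here do not state the annotation, the strand setting or how libraries were scaled to each other. No counts were used, so no count test was made.

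From these values the difference of log2(FPKM + 1) was computed with Python 3.11.15 and pandas 2.3.3, which understates changes of genes at low levels. Of 23983 symbols, 19736 were kept after mitochondrial genes, small RNAs, gene models known by number, joined symbols and pseudogenes of ribosomal proteins were left out. A gene was counted where either library had 5 FPKM or more, and called at 2-fold. With 1 library a group there is no test. Depth was estimated from the spacing of low FPKM values, a method tested on simulated data, and covers counting error only.

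The comparison and the 34 gene lists were chosen with earlier results of these data known. Genes named in the text were drawn from the 20 largest differences in each direction, list members, T, Sox2 and Tbx6, copies that share reads with a named gene, and from the 10 largest differences each way among genes at 100 FPKM or more in both. Hbb-bt and Ahsp had no match in the table. Promoters are from RefSeq, matched by symbol. Alternatives were the pseudocount, the minimum, the scaling, the symbols kept and the fold threshold. Columns without a sample numbered 0. Values of some list members are not reported here.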

Additional observations from a re-analysis of the deposited data

How the results depend on the processing

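The 2-fold counts of 108 higher and 156 lower genes depended on the pseudocount, the minimum and the threshold. They were 49 and 92 with a pseudocount of 5, 193 and 285 with no minimum, 42 and 49 with a minimum of 20 FPKM, 326 and 333 at 1.5-fold, and 18 and 70 at 4-fold. The higher genes made 40.9% of all calls, but 20.5% at 4-fold. With a pseudocount of 0.1, either rescaling, all symbols kept, or the vessel and blood lists left out, both counts stayed within 1.5 times. Under both rescalings all 341 named genes kept their side of 2-fold, and with a pseudocount of 5, 26 dropped below it. No named gene past 2-fold reversed under either pseudocount, either rescaling or no minimum. The same held for the 210 that could be compared at a minimum of 20 FPKM. Direction was not checked for genes within 2-fold, and those close to equality can change sign under rescaling. The medians of axial factors, FGF ligands and neural genes dropped to 0.87, 0.96 and 0.89 with a pseudocount of 5. With a minimum of 20 FPKM those of axial factors and neural genes were 0.82 and 0.91, and with no minimum that of neural genes was 0.50. The minimum of 10 FPKM in a single cell and the endothelial sum without Lmo2 were chosen after seeing the data.

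No paired analysis was possible because each group has 1 library. Variation between embryos, sorts and library preparations was not measured. Genes near 5 FPKM rest on about 116 to 144 fragments per kilobase, and genes listed near 0 have no reliable fold.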
